A study of Mus musculus with 8 samples.

Results

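The H2 genes of the mouse major histocompatibility complex (MHC) on chromosome 17 were examined for replication initiation sites (ISs), the places where DNA synthesis starts, as mapped by short nascent strand sequencing (SNS-seq). An IS was counted as an H2 IS when it lay within 10 kb of a gene on chromosome 17 whose symbol starts with H2- in the GENCODE annotation of mm9. The annotation holds 42 such gene models under 41 symbols, because H2-Q2 appears as 2 models. Of these, 10 belong to class II, 30 to class I, and 2, H2-Ke2 and H2-Ke6, carry the prefix for their place on the chromosome and encode no MHC molecule. The table of Rif1KO against WT held 5 H2 ISs among 39116, and the table of Rif1KO_shMcm6 against Rif1KO_shLacZ held 24 among 129937. All 5 ISs of the first table lay near class II genes. In the second table, 5 lay near class II genes, 14 near class I genes and 5 near H2-Ke2 or H2-Ke6, and no IS lay within reach of both classes. The 29 records stand for 25 loci, since 4 loci appear in both tables.

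All libraries came from CH12 cells (clone F3), a mouse B cell lymphoma line, grown with IL4, CD40 and TGF beta stimulation per the labels. The 4 groups, with 2 libraries each, were WT cells, Rif1KO cells that lack RIF1, and Rif1KO cells infected with a lentivirus that carries a hairpin against LacZ (Rif1KO_shLacZ, the control) or against Mcm6 (Rif1KO_shMcm6) and selected with puromycin. Both hairpin groups thus lack RIF1, and the hairpin against Mcm6 was set against its control only in that genotype. Replicates were separately thawed vials of 1 line, and each deposited table gives a single pooled column for a condition, which leaves no spread between replicates to test against. Nascent DNA does not show whether a gene was knocked out or its transcript depleted, so the labels cannot be checked here. WT and Rif1KO cells had 3350255 and 3724571 reads inside ISs (median 73 and 82 at an IS), and Rif1KO_shLacZ and Rif1KO_shMcm6 cells had 21071351 and 23602750 (median 141 and 160). Density is given as RPM (reads at an IS when all reads of a column are scaled to 1000000) for each kb of IS, and is compared only inside a table, as each table has a scale of its own.

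MHC class I molecules display peptides made inside the cell to CD8 T cells, and class II molecules display peptides taken up from outside to CD4 T cells, which is a main task of B cells. Class II molecules are loaded with the help of H2-DM, whose activity is held back in B cells by H2-DO. H2-K1 and H2-D1 encode classical class I molecules, the Q, T and M genes encode non-classical ones or relatives of unknown use, and between class II and H2-D1 lies the class III interval, which is dense in genes of other functions. ISs are licensed by the MCM helicase, of which MCM6 is a subunit, and RIF1 acts on when replication domains are copied. SNS-seq enriches short, newly made strands that are protected from an exonuclease by their RNA primer, so read density at an IS follows how often replication starts there in a population.

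The ISs on which the values below turn are shown as their central 300 bases, read from the plus strand of mm9 chromosome 17. Capitals mark the G4 motif, 4 runs of GGG with 1 to 7 bases between them, and the Y box letters ATTGG found in MHC promoters, each on either strand, so that runs of CCC and the letters CCAAT are capitals too. The H2-Oa IS is the only H2 IS past 1.5-fold, the H2-Ob IS had the highest density per kb in WT cells, and H2-DMa IS 2 had, level with H2-Oa IS 2 at 14.7 RPM per kb, the highest among class II ISs in Rif1KO_shLacZ cells. H2-M5 IS 2 had the highest density of the class I ISs, H2-M5 IS 1 the lowest fold change among them, and the H2-D1 IS is the only one near a classical class I gene. ISs of 1 gene are numbered along the chromosome within a table.
H2-Oa IS 1 (hairpin table), chr17:34224554-34224853: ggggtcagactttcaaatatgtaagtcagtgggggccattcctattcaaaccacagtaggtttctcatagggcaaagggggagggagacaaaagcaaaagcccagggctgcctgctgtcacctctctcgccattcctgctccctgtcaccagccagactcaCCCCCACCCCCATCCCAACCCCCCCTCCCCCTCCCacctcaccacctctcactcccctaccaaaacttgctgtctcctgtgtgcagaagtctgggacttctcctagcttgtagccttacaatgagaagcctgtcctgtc
H2-Ob IS (Rif1KO against WT), chr17:34377516-34377815: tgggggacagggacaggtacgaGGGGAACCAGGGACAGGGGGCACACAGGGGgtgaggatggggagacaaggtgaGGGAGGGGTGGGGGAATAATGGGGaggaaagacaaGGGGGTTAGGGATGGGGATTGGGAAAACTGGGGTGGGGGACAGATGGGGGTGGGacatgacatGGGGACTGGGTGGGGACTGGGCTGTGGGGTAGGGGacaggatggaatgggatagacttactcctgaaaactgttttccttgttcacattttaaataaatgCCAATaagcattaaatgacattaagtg
H2-DMa IS 2 (hairpin table), chr17:34266518-34266817: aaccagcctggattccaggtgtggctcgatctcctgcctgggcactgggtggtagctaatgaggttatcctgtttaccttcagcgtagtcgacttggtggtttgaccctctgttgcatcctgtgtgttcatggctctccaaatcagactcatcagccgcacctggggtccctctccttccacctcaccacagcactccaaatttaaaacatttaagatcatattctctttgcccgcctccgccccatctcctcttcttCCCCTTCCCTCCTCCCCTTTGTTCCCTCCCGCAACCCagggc
H2-D1 IS (hairpin table), chr17:35393165-35393464: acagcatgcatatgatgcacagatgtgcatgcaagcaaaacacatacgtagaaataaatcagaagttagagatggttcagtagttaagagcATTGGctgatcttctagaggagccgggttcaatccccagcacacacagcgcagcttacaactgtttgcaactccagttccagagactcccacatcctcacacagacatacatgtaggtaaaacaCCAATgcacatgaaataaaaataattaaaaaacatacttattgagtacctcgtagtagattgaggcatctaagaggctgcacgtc
H2-M5 IS 1 (hairpin table), chr17:37118922-37119221: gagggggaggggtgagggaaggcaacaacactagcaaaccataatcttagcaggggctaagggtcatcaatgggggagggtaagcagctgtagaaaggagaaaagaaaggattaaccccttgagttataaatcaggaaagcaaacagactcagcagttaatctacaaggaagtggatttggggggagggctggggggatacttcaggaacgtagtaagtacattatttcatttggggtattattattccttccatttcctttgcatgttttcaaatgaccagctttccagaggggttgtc
H2-M5 IS 2 (hairpin table), chr17:37130977-37131276: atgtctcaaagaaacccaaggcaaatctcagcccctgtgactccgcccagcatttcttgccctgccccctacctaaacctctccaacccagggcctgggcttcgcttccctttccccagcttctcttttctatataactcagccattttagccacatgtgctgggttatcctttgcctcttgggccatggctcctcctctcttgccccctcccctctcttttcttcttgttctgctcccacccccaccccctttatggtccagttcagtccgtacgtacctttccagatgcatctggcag

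The shown H2-Oa sequence holds the G4 motif on the minus strand, and the H2-Ob sequence holds it several times on the plus strand beside the Y box letters on both strands. The H2-DMa sequence holds the G4 motif on the minus strand, the H2-D1 sequence the Y box letters on both strands, and the H2-M5 sequences neither. In the central 300 bases of the 5 class II ISs of the Rif1KO and WT table, 4 held the G4 motif (80.0%), against 55.8% of the 1445 other ISs on chromosome 17. Among the 5 class II ISs of the hairpin table, 2 did (40.0%), against 23.6% of the 4879 others. None of the 14 class I ISs held the G4 motif, and 6 held the Y box letters (42.9%, against 36.7% of the others). The Y box letters were in 1 of 5 class II ISs of the first table (34.4% of the others) and in 0 of 5 of the second. The 4 loci seen in both tables do not always show the same letters, because ISs have other edges and so other centres in each table: H2-Oa IS 2 and H2-Oa IS 3 held the G4 motif in the Rif1KO and WT table and not in the hairpin table. A match describes letters only, with counts too small to compare the classes.

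ISs were near few of the H2 genes. In the Rif1KO and WT table, 3 of 42 H2 gene models had an IS within 10 kb (7.14%), against 9874 of 22350 protein-coding genes of the genome (44.2%) and 248 of the 657 other chromosome 17 genes that are no longer than the longest H2 gene, 19249 bp (37.7%). In the hairpin table, 13 of 42 did (30.95%), against 68.1% and 59.4% of the same sets. Together 14 gene models had an IS in at least 1 table and 28 had none in either. By their own coordinates the lists of the conditions held 5 H2 ISs of 25828 in WT, 3 of 33600 in Rif1KO, 16 of 100612 in Rif1KO_shLacZ and 20 of 115766 in Rif1KO_shMcm6. Neighbouring genes share ISs and the stretches between them, so these shares are descriptions with no test. The authors kept only peaks inside clusters, so an isolated peak near a gene is not counted.

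**Figure D1:**
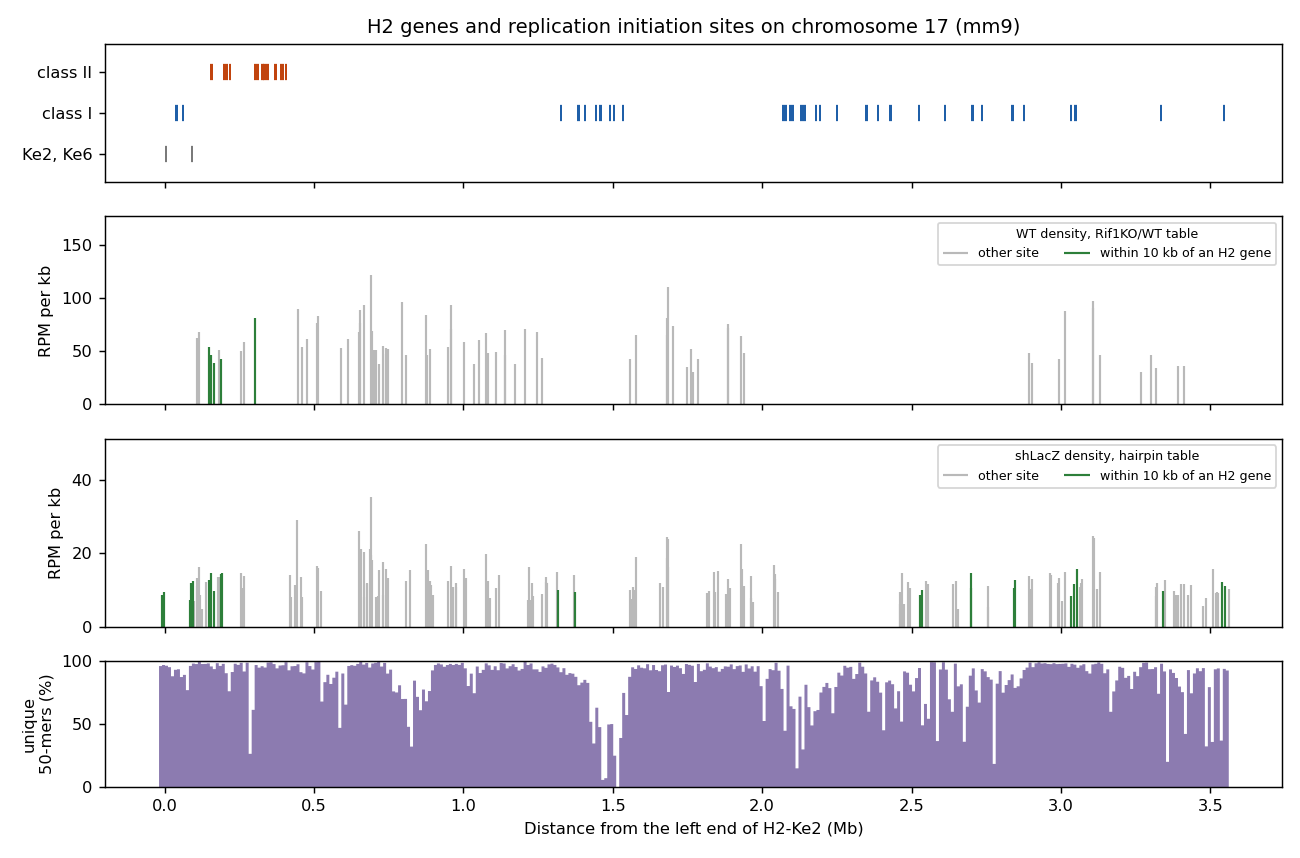
Positions along 3.54 Mb of chromosome 17, as distance from the left end of H2-Ke2 in Mb. From the top, H2 gene models by class, ISs of the Rif1KO and WT table with their WT density, ISs of the hairpin table with their Rif1KO_shLacZ density (both in RPM per kb, H2 ISs in green), and the percent of unique 50-mers in 10-kb bins. The class III interval, between the class II genes and H2-D1, holds many ISs, while the T genes and the first M genes lie in a stretch without any in either table.

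Among class II genes, ISs lay near the genes for the loading helpers and near none of the classical genes. H2-Oa, which encodes the alpha chain of H2-DO, had 3 ISs in each table. H2-DMa, the alpha chain of H2-DM, had 1 in the Rif1KO and WT table and 2 in the hairpin table. H2-Ob, the beta chain of H2-DO, had 1 IS in the Rif1KO and WT table and its nearest IS of the hairpin table was 34.0 kb away (33953 bp). The genes for the beta chain of H2-DM, H2-DMb2 and H2-DMb1, had none, with nearest ISs at 14.4 and 24.2 kb in the first table and at 13.4 and 23.2 kb in the second. The classical genes H2-Ab1, H2-Aa, H2-Eb1 and H2-Eb2 and the pseudogene H2-Ea-ps had none in either table. They lay together in 142.6 kb without an IS in the Rif1KO and WT table, between positions 34377949 and 34520581. In the hairpin table they lay with H2-Ob in 153.6 kb without an IS, rank 62 of the 4902 gaps between neighbouring ISs on the chromosome. The share of 50-mers (the length of a read) that occur once in mm9 was 97.1% and 90.3% in these stretches. This share is counted on the C57BL/6J sequence, and whether reads of CH12 cells can be placed there was not tested. Isolated peaks were removed before deposit, so these stretches may hold starts of replication that are not listed.

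Class I genes had no IS within 10 kb in the Rif1KO and WT table (0 of 30), and 9 of 30 had one in the hairpin table (30%). The classical gene H2-D1 had 1 IS, 6.12 kb upstream, and the classical gene H2-K1 and the pseudogene H2-K2 had none, with nearest ISs at 23.7 and 38.3 kb. Of the 7 Q gene models only the first copy of H2-Q2 had one. None of the 7 T gene models had one. Among them is H2-T23, which encodes the ligand of inhibitory receptors on natural killer cells. Of the 13 M genes 7 had one, namely H2-M10.4, H2-M9, H2-M10.5, H2-M6-ps, H2-M5, H2-M3 and H2-M2, with the nearest between 1105 bp (H2-M9) and 6184 bp (H2-M3) away. H2-M3 binds peptides with a formyl group at their start, and the H2-M10 genes are expressed in the vomeronasal organ.

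The T genes and H2-M10.2, H2-M10.1 and H2-M10.3 lay in 404.8 kb without an IS in the hairpin table, the third longest of 4902 gaps on chromosome 17, against a median gap of 7.13 kb. In the Rif1KO and WT table the stretch was 953.5 kb long, ran on to H2-M10.6, held 16 H2 genes and ranked 4 of 1449 gaps, with a median gap of 21.7 kb. Both copies of H2-Q2 and H2-Q4, H2-Q8, H2-Q6, H2-Q7 and H2-Q10 lay in 182.9 kb without an IS in the hairpin table. The IS of the first copy of H2-Q2 lay at the edge of this stretch. Here fewer 50-mers were unique, with 75.3% in the stretch of T genes, 52.4% in the stretch of Q genes and 29.9% within 10 kb of H2-Q7. Over the windows of all class I genes 75.6% of 50-mers were unique, against 93.6% over those of class II genes. Class I genes with an IS in the hairpin table had a median unique share of 89.3% (9 genes), and those without one had 76.1% (21 genes). The authors kept uniquely aligned reads, and the part of sequence copies in these stretches was not tested. Counted per Mb of unique 50-mers, H2 ISs of the hairpin table numbered 27.6 for class II and 27.7 for class I, against 61.1 for the other chromosome 17 genes of that length. In the Rif1KO and WT table class II went the other way, with 27.6 against 22.5, and 3 of 10 class II genes (30%) had an IS against 37.7% of those genes.

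**Figure D2:**
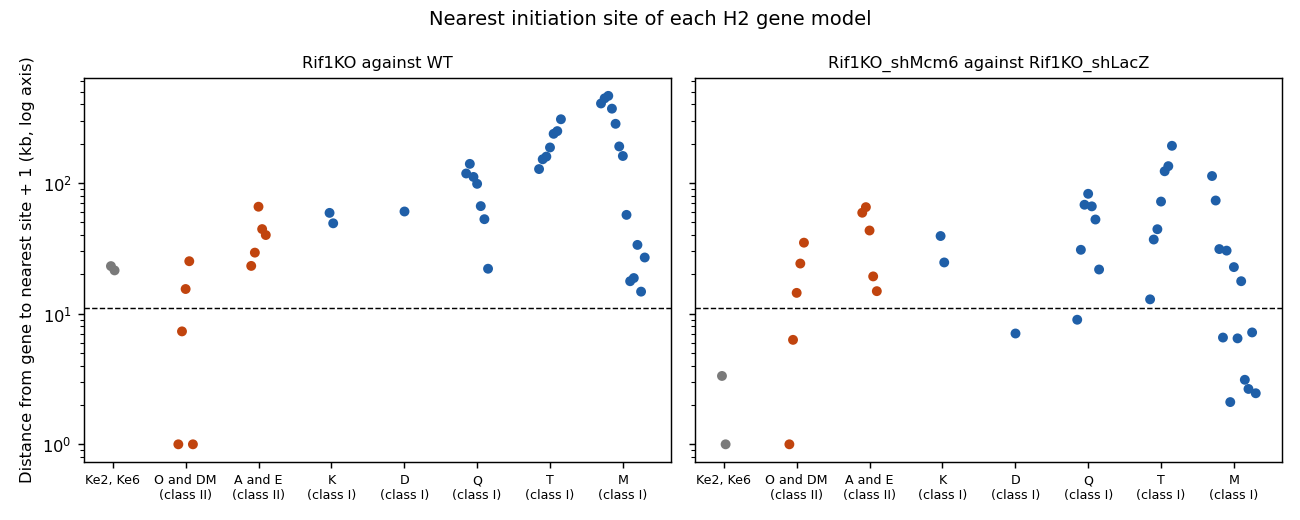
Distance in kb from each H2 gene model to its nearest IS, plus 1 and on a log axis, by gene group and table, with genes in chromosome order within a group. The dashed line is the 10 kb limit. In the Rif1KO and WT table only 3 genes of the O and DM group lie under it, and in the hairpin table, 13 gene models do, 7 of them M genes.

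The class III interval, from the end of H2-Ea-ps to the start of H2-D1, gave the local contrast. Its 0.918 Mb held 40 ISs of the Rif1KO and WT table (43.6 per Mb) and 58 of the hairpin table (63.2 per Mb). Per Mb of gene windows, class II genes had 25.8 ISs in each table, and class I genes had 0 and 21.0. In the class III interval 73.9% of 69 protein-coding genes had an IS within 10 kb in the first table and 66.7% in the second, with 90.5% of its 50-mers unique.

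Loss of RIF1 left the 5 class II ISs within counting error. The median log2 fold change of Rif1KO against WT was 0.05 (range -0.27 to 0.19), beside 0.02 over all ISs of the table and -0.02 over the other ISs of chromosome 17. The 40 ISs of the class III interval had a summed log2 ratio of -0.14 (-0.20 to -0.08), with 30 below 0 and 3 lower past 1.5-fold. None of the 5 class II ISs was past 1.5-fold, against 4.96% of all ISs in either direction (2.27% higher and 2.7% lower). Summed over these 5 ISs, 465 WT and 534 Rif1KO reads gave a log2 ratio of 0.05, with a 95% counting interval of -0.14 to 0.23. Intervals are exact Clopper-Pearson intervals on the reads, except that on the difference between classes, which is a normal one, and all cover counting error only, as reads that are PCR copies are not independent.

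The H2-Ob IS was the densest, with 154 reads and 81.2 RPM per kb in WT cells and 190 reads and 90.1 RPM per kb in Rif1KO cells, at percentiles 96.6 and 98.4 of the table. It lay at 34377383 to 34377948 in an intron, 402 bases from a transcript start of H2-Ob, and its log2 fold change was 0.15 (-0.16 to 0.47). The authors' list of Rif1KO ISs did not hold it although its density there was not below that in WT cells. The lists of both hairpin groups did not hold it either, so of the 4 lists only that of WT held it. Lists keep only peaks inside clusters, so absence does not show that no peak was called. Of all 39116 ISs, 5540 were in the WT list and not in the Rif1KO list. Between WT and Rif1KO cells the H2-Ob IS thus differed in the lists and not, beyond counting error, in density. For the hairpin groups no density of it was given.

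H2-Oa IS 1, 4.24 kb upstream of the gene at 34224257 to 34225042, had 141 WT and 162 Rif1KO reads (53.5 and 55.3 RPM per kb). Its log2 fold change was 0.05 (-0.29 to 0.38), and it was in the lists of all 4 conditions. H2-Oa IS 2, over the last exon and UTR of the gene at 34231716 to 34232068, had 55 and 58 reads and a log2 fold change of -0.08 (-0.63 to 0.48). It was missing from the Rif1KO list only. Downstream, H2-Oa IS 3 had 63 and 58 reads (38.7 and 32.04 RPM per kb), the lowest fold change of the 5 at -0.27 (-0.81 to 0.27), and the H2-DMa IS, 6.32 kb upstream of its gene, had 52 and 66 reads and the highest at 0.19 (-0.36 to 0.74). All 5 intervals included 0, and over the whole table, 11.1% of ISs had a change beyond their counting interval.

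**Figure D3:**
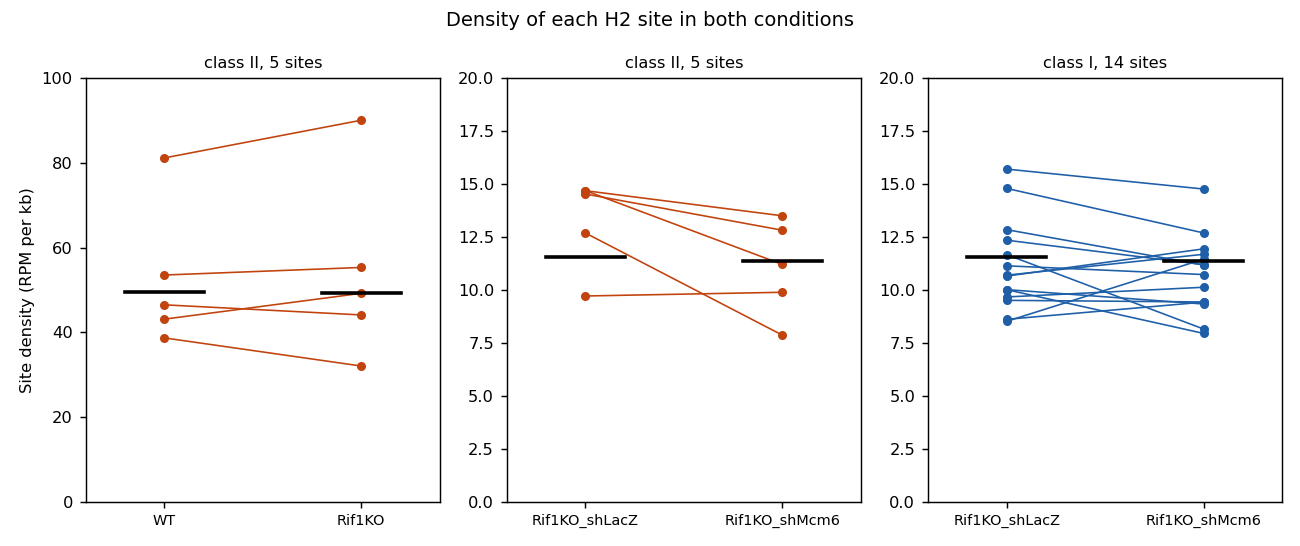
Density in RPM per kb of each H2 IS in both conditions of a table, with 1 line per IS and black bars for the median of all ISs of the table. The left panel shows the 5 class II ISs in WT and Rif1KO cells, the middle and right panels the 5 class II and 14 class I ISs in Rif1KO_shLacZ and Rif1KO_shMcm6 cells. In Rif1KO_shLacZ cells 4 of 5 class II ISs lie above the black bar, and in Rif1KO_shMcm6 cells 2 do.

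Depletion of MCM6 in Rif1KO cells went with a lower density at 1 class II IS. H2-Oa IS 1, at 34224454 to 34224954, had 134 reads in Rif1KO_shLacZ and 93 in Rif1KO_shMcm6 cells, or 12.7 and 7.86 RPM per kb. The log2 fold change was -0.69 (-1.09 to -0.30), a 1.61-fold lower density. It was the only one of 24 H2 ISs past 1.5-fold, against 6.31% of all ISs in either direction and 1.51% in the lower direction. With 1 RPM added to both values the log2 fold change was -0.575, just short of the threshold of 0.585, so that no H2 IS was past it. Its density per kb went from percentile 64.9 of the table to percentile 2.18. In RPM not scaled by width, it went from percentile 45.9 to percentile 10.8. The IS was in the lists of both hairpin groups.

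The other 4 class II ISs had log2 fold changes between -0.39 and 0.03, with intervals that included 0. H2-DMa IS 2 had 96 and 82 reads (14.7 and 11.2 RPM per kb) and a log2 fold change of -0.39 (-0.83 to 0.05), and was in the list of Rif1KO_shLacZ alone. H2-DMa IS 1 had 170 and 168 reads (14.5 and 12.8 RPM per kb) and -0.18 (-0.50 to 0.14). H2-Oa IS 2, over the end of the gene, had 135 and 139 reads (14.7 and 13.5 RPM per kb) and -0.12 (-0.47 to 0.23). H2-Oa IS 3 had 171 and 195 reads (9.72 and 9.89 RPM per kb) and 0.03 (-0.28 to 0.33). Thus 4 of the 5 had a fold change below 0, as 51.6% of all ISs did, with a median of -0.18 beside -0.01 over the table. Over the 5 ISs, 706 and 677 reads gave a log2 ratio of -0.22 (-0.38 to -0.07). Without H2-Oa IS 1 the other 4 had 572 and 584 reads and a log2 ratio of -0.13 (-0.30 to 0.04), which includes 0. The 58 ISs of the neighbouring class III interval had a summed log2 ratio of -0.10 (-0.13 to -0.06), with 39 below 0.

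The 14 class I ISs had a median log2 fold change of -0.07, with 5 above 0 and 9 below, and none past 1.5-fold. All 14 lay between genes, 7 upstream and 7 downstream of their H2 gene, and 2 of them lay within 1 kb of the start of another gene. H2-M5 IS 1, 1.65 kb downstream of H2-M5 and 610 bases from the start of 2410137M14Rik, had 138 and 108 reads, or 11.7 and 8.16 RPM per kb. Its fold change of -0.52 (-0.89 to -0.14) was the lowest of the class. The pseudogene H2-M6-ps had the highest, 0.43, with 79 and 119 reads and an interval whose lower end, 0.0049, was just above 0, and its IS was in the Rif1KO_shMcm6 list alone. These 2 of 14 were the class I ISs whose interval left out 0. Over both classes, H2-Ke2 and H2-Ke6 it was 4 of 24, against 25.1% of all ISs of the table with a change beyond counting error, so the H2 ISs were not above the background.

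Among the densest class I ISs, H2-M5 IS 2 had 151 and 159 reads (15.7 and 14.8 RPM per kb, fold change -0.09). H2-M9 IS 2 had 102 and 98 reads (14.8 and 12.7 RPM per kb, -0.22), and H2-M10.5 IS 2 had 117 and 114 (12.9 and 11.2 RPM per kb, -0.20). Only 36.6% of the 50-mers in this last IS were unique, the lowest share of all H2 ISs. H2-M9 IS 1 had 161 and 197 reads (10.7 and 11.7 RPM per kb, 0.13) and H2-M10.5 IS 1 had 137 and 172 (10.7 and 11.9 RPM per kb, 0.16). Neighbouring ISs of 1 M gene thus lay on both sides of 0 at H2-M9, H2-M10.5 and H2-M10.4, whose ISs had 0.13 and -0.10, each within counting error. The IS upstream of H2-D1, in the Rif1KO_shLacZ list alone, had 99 and 88 reads (10.02 and 7.95 RPM per kb) and -0.33 (-0.76 to 0.10). The H2-Q2 IS had 90 and 100 reads and -0.01. The IS of H2-M3 (75 and 88 reads, 0.07) and both of H2-M2 (132 and 134 reads, -0.14, and 89 and 96 reads, -0.05) were in the Rif1KO_shMcm6 list alone, as was that of H2-Q2.

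**Figure D4:**
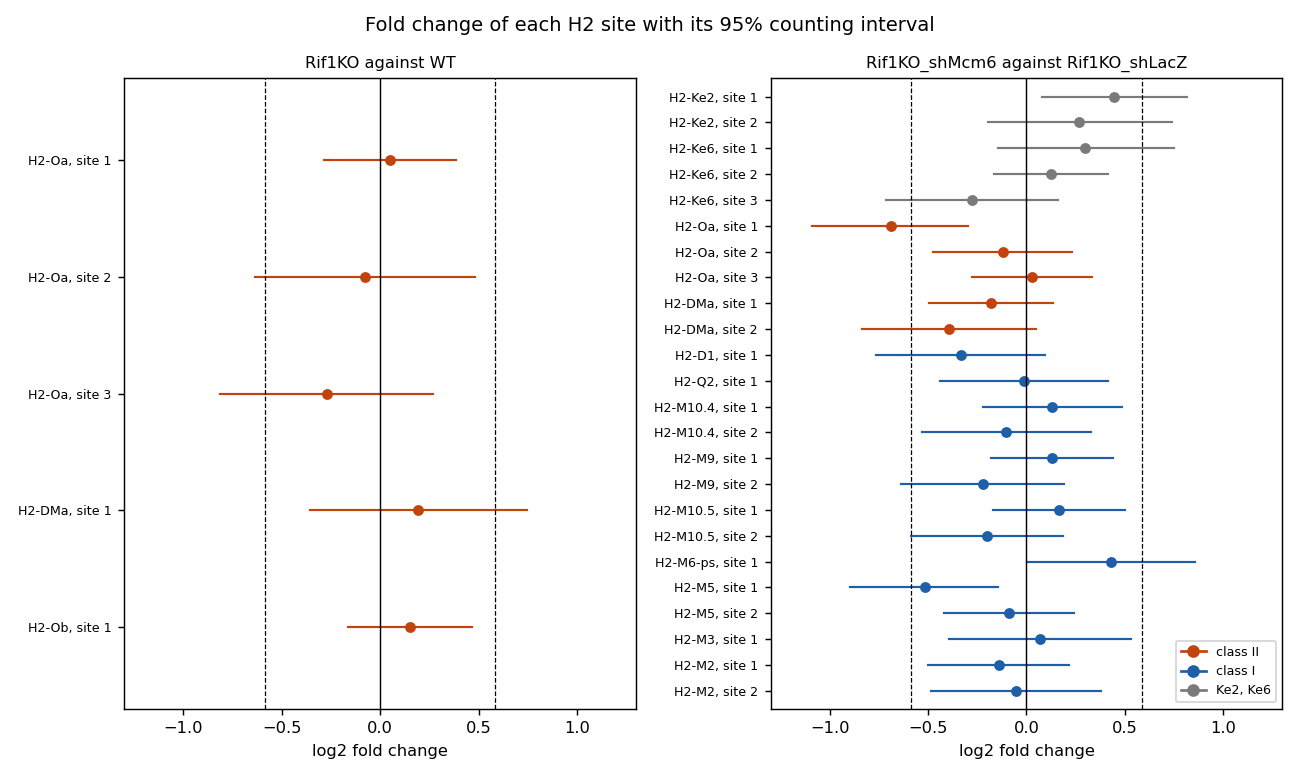
Log2 fold change of each H2 IS (points) with its 95% counting interval (lines), in chromosome order from the top, for Rif1KO against WT (left, 5 ISs) and Rif1KO_shMcm6 against Rif1KO_shLacZ (right, 24 ISs), coloured by class. The dashed lines are 1.5-fold. Only H2-Oa IS 1 on the right lies past one of them, at -0.69.

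Set against each other in the hairpin table, class II ISs had the higher density per kb in Rif1KO_shLacZ cells, with a median of 14.5 RPM per kb against 10.7 for class I. By this density 4 of 5 against 5 of 14 lay above the median of the table. In RPM not scaled by width, 2 of 5 and 2 of 14 did. In Rif1KO_shMcm6 cells the medians were 11.2 and 10.96 RPM per kb. Of the class I ISs 5 of 14, and of the class II ISs 0 of 5, were in the Rif1KO_shMcm6 list alone. Over the whole table it was 30063 of 129937, and the counts of H2 ISs are too small to compare the classes. Over the ISs in both lists, 4 of class II and 8 of class I, the medians were 13.6 and 11.2 RPM per kb in Rif1KO_shLacZ cells. In Rif1KO_shMcm6 cells they were 11.36 and 11.44 RPM per kb, so class II was not the higher there. The medians of the log2 fold change over these ISs were -0.15 and -0.10. The log2 ratio of summed reads was -0.22 for class II and -0.05 (-0.15 to 0.05; 1585 and 1720 reads) for class I. The difference, class II minus class I, was -0.18 with a counting SE of 0.09 and an interval of -0.36 to 0.0027, which includes 0. Without H2-Oa IS 1 it was -0.09 (-0.28 to 0.11). No such comparison could be made for RIF1 loss, where class I had no IS.

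The 5 ISs near H2-Ke2 and H2-Ke6 lay in or at the starts of the neighbouring genes Rgl2, Ring1 and Rxrb or in H2-Ke6. Their fold changes ran from -0.28 to 0.44 with 4 above 0, and the highest, H2-Ke2 IS 1, had 105 and 160 reads (0.08 to 0.81) and the median was 0.27. Of the 4 above 0, 3 were in the Rif1KO_shMcm6 list alone, the condition in which they were higher, and the part of the calling in this count was not tested. The 1 IS in both lists had 0.12. H2-Ke2 encodes a prefoldin subunit and H2-Ke6 a steroid dehydrogenase, so they are kept out of the comparison of classes.

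At the 4 loci seen in both tables each comparison gave its own values, and Rif1KO and Rif1KO_shLacZ share the genotype but not the libraries. H2-Oa IS 1 had 0.05 on loss of RIF1 and -0.69 on depletion of MCM6. Its interval on depletion, -1.09 to -0.30, did not overlap the first one, -0.29 to 0.38, although their ends nearly meet. The IS was drawn 786 bp wide in one table and 501 bp in the other. It was singled out as the only H2 IS past 1.5-fold, and the intervals cover counting error only, so they do not test a difference. H2-Oa IS 2 had -0.08 and -0.12, H2-Oa IS 3 had -0.27 and 0.03, and the shared H2-DMa IS had 0.19 and -0.18, each pair with overlapping intervals. All 4 loci were in the WT and Rif1KO_shLacZ lists, and H2-Oa IS 2 was the one not in the Rif1KO list.

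The median width of H2 ISs was 462.5 bp in the hairpin table, against 596 bp over all its ISs, and the highest density per kb of an H2 IS in Rif1KO_shLacZ cells was 15.7 RPM per kb, at percentile 88.3. Of the 24, 13 were in the lists of both hairpin groups (54.2%, against 65.8% of all ISs), 3 in that of Rif1KO_shLacZ alone and 8 in that of Rif1KO_shMcm6 alone. Over all 129937 ISs, 14417 were in the Rif1KO_shLacZ list alone and 30063 in the Rif1KO_shMcm6 list alone. GC content had a median of 50.5% in class II, 42.9% in class I and 56.5% in the ISs near H2-Ke2 and H2-Ke6, against 45.8% over the other ISs of chromosome 17.

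The limit of 10 kb leaves out close neighbours. Just inside it, H2-Oa IS 3 of the hairpin table lay 9903 bp from the gene with a fold change of 0.03, and just outside it an IS 10073 bp from H2-M3 (159 and 135 reads) had -0.40. Between 10 and 20 kb an IS upstream of H2-DMa, 16600 bp away, had 167 and 105 reads, a log2 fold change of -0.83. Over all 21 ISs of the hairpin table between these limits, 14 were above 0, the median was 0.11, and an IS near H2-M3 reached 0.41. In the Rif1KO and WT table the class I genes H2-M3, H2-M10.6 and H2-M6-ps had ISs at 13.7, 16.7 and 17.7 kb, with 0.23, -0.07 and -0.56.

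Other genes of antigen presentation were counted the same way from a list of 22. In the Rif1KO and WT table, 10 of them had an IS (45.5%, against 44.2% of all protein-coding genes), with 30 ISs, a median log2 fold change of 0.06 and none past 1.5-fold (4.96% of all ISs). In the hairpin table, 16 had one (72.7%, against 68.1%), with 110 ISs, a median of -0.07, with 4 ISs higher and 1 lower past 1.5-fold (4.8% and 1.51% of all ISs), and 57 of the 110 lay near the long gene March1. Of the 4 higher ISs 3 lay near March1, up to 1.86, and 1 near Nlrc5, the switch of class I transcription, at 0.63. The lower one lay near Ciita, the switch of class II transcription, at -0.75, while the 7 ISs near Ciita had a median of 0.09 and a summed log2 ratio of 0.07 (-0.04 to 0.17). B2m, the light chain of class I, and the chaperones Calr and Canx had none in either table. The genes for the peptide transporter and the immunoproteasome, Tap1, Tap2, Psmb8 and Psmb9, lie among the class II genes and share ISs. In WT and Rif1KO cells an IS at 34341562 had 85 and 63 reads, a log2 fold change of -0.58 (-1.08 to -0.10) that ended just short of 1.5-fold, and an IS at 34332942 had 54 and 41 reads and -0.55 (-1.17 to 0.06). Both were in the WT list and not in the Rif1KO list, as were 5540 of the 39116 ISs of the Rif1KO and WT table. They lay with the H2-Ob IS in 1 stretch of 287.7 kb that holds no IS of the Rif1KO list. The second locus had 218 and 173 reads in the hairpin table, -0.50 (-0.79 to -0.20), and the first -0.01 (136 and 151 reads). Tapbp, which holds empty class I molecules at the transporter, had 2 ISs in the first table, at -0.34 and -0.19, and 4 in the second, 2 of which are the ISs of H2-Ke2.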

How the data were processed

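Reads of 8 SNS-seq libraries were trimmed by the authors with Trim Galore 0.6.4 and cutadapt 2.6, aligned to mm9 with Bowtie 1.2.3 keeping unique alignments, and called as peaks per replicate with MACS without input. Consensus peaks of a condition were kept only inside clusters of peaks, which removes isolated ISs, and merged per comparison. The deposited values are log2 RPM, 1 per condition, and their linear values sum to 1000000 per table column. How replicates were pooled is not stated. Other deposited columns hold the authors' category of fold change and numbers of merged peaks, and were not used.

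Whole reads were recovered for 100% of the values (at most 5.46e-12 from a whole number), which gave the counting intervals (95%, scipy 1.17.1, checked on simulated data). An interval on a difference of summed ratios is a normal one on counting SEs. The log2 fold change is the treated minus the control value, and 1.5-fold follows the study. Genes, exons and starts came from GENCODE for mm9, and 50-mers were counted as unique on exact matches, whereas the alignment allowed mismatches. The mm9 sequence is that of C57BL/6J mice, and the H2 haplotype of CH12 cells was not analysed here. The H2 genes, the list of other genes and the features were chosen with earlier results of these data known. ISs named in full were, per class and table, the 3 densest in the control condition (RPM per kb) and the 2 highest and 2 lowest fold changes among ISs whose mean log2 RPM, not scaled by length, was no lower than the table's median. All other ISs, H2-Oa IS 1 of the hairpin table, H2-M5 IS 1, those near Tap1 and Tap2 and those beyond 10 kb among them, were named after their values were seen. The planned fit on replicates could not be made. Alternatives covered the threshold, pseudocount, density filter, ISs called in both conditions, centring, distance, summed reads and protein-coding genes.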

Additional observations from a re-analysis of the deposited data

How the results depend on the processing

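No paired analysis was possible because replicates were merged into single columns without numbers before deposit, and for the same reason no replicate could be left out. The count of H2 ISs past 1.5-fold in the hairpin table, 1, was 0 at 2-fold, 6 at a log2 threshold of 0.32 (2 higher and 4 lower, against 25.6% of all ISs), 0 with log2(RPM + 1), where the IS had -0.575, 0 over ISs that overlap an H2 gene and 2 within 20 kb. The other 40 of 45 alternatives stayed within counting error or within 1.5 times the count. Among them, medians near 0 changed sign within 20 kb, to -0.01 for class II ISs of Rif1KO against WT and to 0.0043 for class I ISs of the hairpin table. An alternative without H2-Oa IS 1 was chosen after seeing the data, and left a class II median of -0.15 and a summed log2 ratio of -0.13 in place of -0.22. The densities over ISs in both lists were likewise added after seeing the data. Class I ISs of Rif1KO against WT gave a value only within 20 kb (-0.07, 3 ISs), and no class I IS overlapped its gene in the hairpin table. At 52 to 222 reads per H2 IS and condition, the counting SE of a log2 fold change was 0.14 to 0.27.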
